A study of Mus musculus with 8 samples.

Results

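Chromatin accessibility at the promoters of chromatin regulator genes was taken from ATAC-seq of mouse kidney tubuloids, in which the Tn5 transposase inserts adapters into open DNA. The genes were chosen by symbol: those whose name begins with Kdm, Kmt, Setd, Ezh, Prmt, Kat, Hdac, Sirt, Smarc, Arid, Chd, Ino80, Baz, Brd, Phf, Ing, Taf or Med (a digit follows in the Kat, Arid, Chd, Baz, Brd, Phf, Ing, Taf and Med families). A peak counted where its centre lay within 1000 bp of the transcription start site (TSS) given in the deposited table. This gave 66 peaks of 59 genes, out of 6425 peaks in all and 4162 within 1000 bp of a TSS. No Brd gene had a peak inside the window, and the nearest, at Brd2, lay 1336 bp from its TSS.

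The 4 myoglobin libraries came from wild-type tubuloids exposed for 12 h to myoglobin, the oxygen-binding haem protein of muscle, which the series text uses to injure tubule cells. The 4 vehicle libraries came from wild-type tubuloids treated without myoglobin. Tubuloids are epithelial structures grown in Matrigel, here from dissociated renal cortex, and 50000 cells went into each transposition. The series text gives 4 mice but ties no library to a mouse, so p-values measure the spread between these libraries, which may be partly technical. The labels give no age or sex.

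Chromatin regulators act on the packaging of DNA in nucleosomes. Writers such as histone methyltransferases and acetyltransferases add marks to histones, erasers such as demethylases, deacetylases and sirtuins remove them, and readers with PHD fingers bind marked tails and bring complexes to them. Remodellers of the SWI/SNF, ISWI, CHD and INO80 classes spend ATP to slide or evict nucleosomes, while Mediator and the TBP-associated factors link transcription factors to RNA polymerase II at promoters. In kidney tubules these proteins are known from work on the gene programmes of injury and repair.

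Each peak value is the authors' read number in the peak, scaled per library and rounded to a whole number, so it has no unit of its own. Reads inside peaks, estimated from the scaling steps in each column, were 123446, 82505, 67627 and 120219 in the myoglobin libraries, against 166241, 200728, 130589 and 171209 in the vehicle libraries. The ratio of their sums was 0.589, and no myoglobin library reached the depth of any vehicle library, so depth and treatment cannot be told apart in this design. Of 20 genes on a proximal tubule list, 3 had a promoter peak (Cdh16, Cryl1 and Pax2). Of 19 on a loop, distal and collecting duct list, 3 did (Scnn1g, Cdh1 and Epcam). The defining genes Lrp2, Cubn, Slc34a1, Hnf4a, Umod, Slc12a1 and Aqp2 had no promoter peak in the table. No promoter peak was assigned to any of 8 markers of endothelium, 10 of fibroblasts and pericytes, 8 of immune cells and 6 of podocytes. Since defining tubule genes lacked peaks too, these lists cannot show which cell types were present or absent.

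The promoters below are shown because the results turn on them. Smarca4 encodes the SWI/SNF ATPase BRG1 and had the smallest p-value among the 66 peaks. Smarca2 encodes the alternative ATPase BRM and is its paralogue. Kdm1b encodes the histone H3 demethylase LSD2 and was the other promoter whose groups did not overlap. Prmt1, the main enzyme of asymmetric arginine methylation, had the tallest peak of the set and a difference near 0. The sequences are from RefSeq (GRCm38.p6, the assembly that mm10 names), run 5′ to 3′ on the gene's strand over 250 bases before the TSS and 50 after, and have in capitals the bases inside the ATAC peak.
Smarca4 (chr9:21615919-21616218, plus strand): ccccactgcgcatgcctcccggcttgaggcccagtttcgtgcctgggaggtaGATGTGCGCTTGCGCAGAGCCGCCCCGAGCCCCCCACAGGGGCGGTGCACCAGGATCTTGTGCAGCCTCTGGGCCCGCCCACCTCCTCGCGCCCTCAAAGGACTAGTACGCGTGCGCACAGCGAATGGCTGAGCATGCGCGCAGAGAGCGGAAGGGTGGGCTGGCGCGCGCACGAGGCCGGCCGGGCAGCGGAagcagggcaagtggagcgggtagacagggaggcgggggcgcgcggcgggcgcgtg
Smarca2 (chr19:26604910-26605209, plus strand): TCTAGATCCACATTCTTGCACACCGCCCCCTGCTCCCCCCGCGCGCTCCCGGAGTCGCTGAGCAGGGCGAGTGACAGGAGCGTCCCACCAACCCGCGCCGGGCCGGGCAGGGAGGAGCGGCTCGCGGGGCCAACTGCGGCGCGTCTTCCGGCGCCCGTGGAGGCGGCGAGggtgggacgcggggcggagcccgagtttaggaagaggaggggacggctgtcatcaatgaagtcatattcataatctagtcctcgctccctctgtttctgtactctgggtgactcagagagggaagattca
Kdm1b (chr13:47043249-47043548, plus strand): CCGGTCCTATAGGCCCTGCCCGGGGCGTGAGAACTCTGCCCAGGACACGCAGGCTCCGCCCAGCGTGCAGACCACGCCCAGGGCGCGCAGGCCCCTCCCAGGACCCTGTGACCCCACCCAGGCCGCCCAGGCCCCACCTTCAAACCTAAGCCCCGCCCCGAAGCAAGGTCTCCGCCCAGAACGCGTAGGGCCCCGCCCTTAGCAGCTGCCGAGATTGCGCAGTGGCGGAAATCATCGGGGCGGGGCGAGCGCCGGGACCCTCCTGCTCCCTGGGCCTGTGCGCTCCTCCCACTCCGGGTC
Prmt1 (chr7:44986371-44986670, minus strand): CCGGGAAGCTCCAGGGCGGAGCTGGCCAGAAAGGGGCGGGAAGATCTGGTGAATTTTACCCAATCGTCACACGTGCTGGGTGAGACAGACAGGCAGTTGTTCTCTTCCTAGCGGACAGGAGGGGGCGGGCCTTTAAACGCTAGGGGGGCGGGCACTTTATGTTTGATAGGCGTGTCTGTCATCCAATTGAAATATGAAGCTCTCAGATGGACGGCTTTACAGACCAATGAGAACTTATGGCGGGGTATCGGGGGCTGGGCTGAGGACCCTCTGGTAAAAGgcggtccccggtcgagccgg
In the Smarca4 window 193 of 300 bases lay in the peak, and G and C made up 72.3%. The letters GCATGCGC, a core of the NRF1 motif, occurred at -66 inside the peak and on the other strand at -243 outside it, counting the TSS base as 0. The 3 copies of the GC box letters GGGCGG (either strand) all lay inside the Smarca4 peak. The Smarca2 window had 170 bases in its peak, 2 GC boxes, no NRF1 letters, the ETS letters CCGGAAG once inside the peak, and the AP-1 letters TGANTCA once, 28 bases after the TSS and outside it. In Kdm1b all 300 bases lay in the peak, with 6 GC boxes. The Prmt1 window had 280 bases in its peak, with 4 GC boxes and 3 CCAAT boxes. Motif positions count from the RefSeq TSS, while peak distances in this report count from the deposited TSS. The Smarca2 peak centre lay at -282 from the first and -172 from the second, and that of Prmt1 at -233.5 and -85.5. For Smarca4 both were -102, and for Kdm1b both were -120.5. A letter match describes the sequence and does not show a bound site.

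No chromatin regulator promoter peak differed between myoglobin and vehicle at an adjusted p under 0.05, by limma on log2(value + 1) with Benjamini-Hochberg adjustment over all 6425 peaks. Over all peaks 16 passed (0.249%), 13 higher (0.202%) and 3 lower (0.0467%). At an unadjusted p under 0.05, 2 of the 66 passed (3.03%), against 7.6% of all peaks (3.67% higher and 3.92% lower). Both were higher with myoglobin: Smarca4 and Kdm1b. The same 2 peaks had groups that did not overlap, a share of 3.03% beside 3.04% of all peaks (1.45% higher and 1.59% lower). Counting both directions, neither share exceeded that of the whole table, and none of the 66 was lower by either measure.

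Differences were small in most of these promoters. On the log2(value + 1) scale, which understates changes of low peaks, the median difference, myoglobin minus vehicle, was 0.04 over the 66 peaks (interquartile range -0.13 to 0.20). It was -0.02 over all peaks and -0.01 over the other 4096 peaks within 1000 bp of a TSS. The difference was positive in 38 peaks and negative in 28 (57.6% positive, against 47.1% of all peaks), and 46 of 66 lay within 0.25 of 0. The SD of the differences was 0.27, and 0.31 over the other promoter peaks. A typical standard error at 1 peak was 0.26 (median, range 0.13 to 0.52), as large as the spread of the differences themselves. Together the 66 peaks took 1.20% ± 0.045 of the summed value in myoglobin libraries and 1.18% ± 0.039 in vehicle libraries (SD, n = 4 each), and the ranges of 1.14% to 1.24% with myoglobin and 1.13% to 1.21% with vehicle overlapped.

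**Figure D1:**
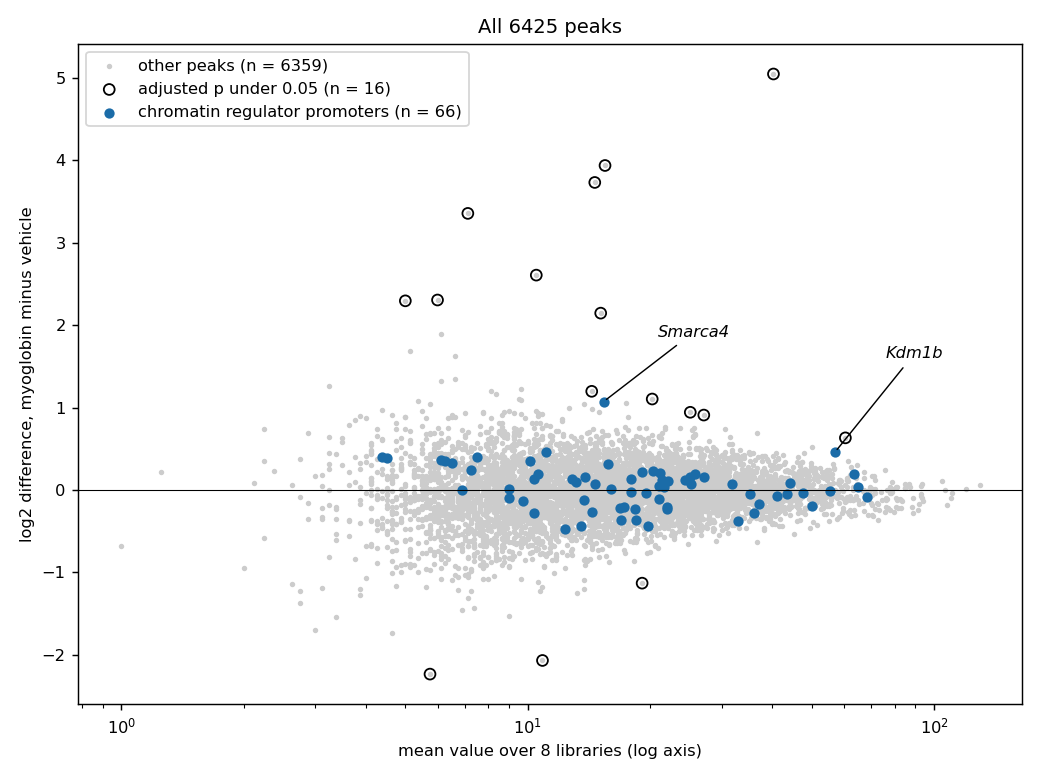
Each point is a peak, with its mean value over 8 libraries on a log axis and the log2 difference, myoglobin minus vehicle, on the vertical axis; blue points are the 66 chromatin regulator promoters and open circles the 16 peaks with an adjusted p under 0.05. Smarca4 at 1.07 is the highest of the blue points, and none of them is circled.

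Among the remodeller genes, a class formed by symbol that also holds subunits and ARID genes, the promoter of Smarca4 had the largest difference. Its peak (chr9:21615971-21616163 on mm10, centre 102 bp from the TSS and upstream of the gene) had values of 21, 18, 22 and 23 in the myoglobin libraries, against 12, 12, 6 and 9 in the vehicle libraries. All 4 myoglobin libraries were above all 4 vehicle libraries. The means were 21.0 ± 2.16 with myoglobin and 9.75 ± 2.87 with vehicle (SD, n = 4 each), a ratio of 2.15. The log2 difference was 1.07 ± 0.28 (SE, 95% limma interval 0.52 to 1.62), with an adjusted p = 0.0701 by limma, number 20 of 6425 in order of p. The values rest on few reads: an estimated 21, 12, 12 and 22 in the myoglobin libraries, against 16, 19, 6 and 12 in the vehicle libraries. Corrected for depth, the 67 reads with myoglobin and 53 with vehicle gave a ratio of 2.15 (95% interval 1.48 to 3.14). The interval covers counting error only and takes each read as independent, and whether duplicates were removed is not given. With library weights the adjusted p was 0.0496, and without vehicle replicate 3, the lowest library, it was 0.475 with a log2 difference of 0.88. In bulk tubuloids, a change in the share of a cell type and a change in accessibility per cell cannot be told apart.

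The promoter of the paralogous ATPase had overlapping groups. The Smarca2 peak (chr19:26604677-26605079, 172 bp from the TSS) had 14, 21, 24 and 22 with myoglobin, against 34, 17, 23 and 21 with vehicle. The highest of the 8 values was in a vehicle library, and the log2 difference was -0.20 ± 0.23 (SE). Whether Smarca4 and Smarca2 differed in their response was not tested. Smarca5, the ISWI ATPase SNF2H, had low values of 6, 9, 6 and 8 with myoglobin, against 6, 6, 3 and 8 with vehicle. Its difference of 0.33 ± 0.41 was within its error.

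The other remodeller promoters were close to 0 or uncertain. Over the whole class, Smarca4 included, 7 of 12 peaks of 11 genes had a positive difference and the median was 0.04. With a library left out the median was -0.0024 to 0.13, lowest without myoglobin replicate 2. Baz1b, whose product pairs with SNF2H, had 7, 17, 7 and 16 with myoglobin, against 10, 6, 11 and 7 with vehicle at its peak 88 bp from the TSS. That is 0.35 ± 0.34 on the log2 scale, with an wider spread in the myoglobin group (SD 5.50, against 2.38 with vehicle). A second Baz1b peak at 321 bp was at 0.00 ± 0.39. The CHD helicases Chd1 and Chd6 both had 0.15, and Chd8, the tallest peak of the class, had 57, 47, 45 and 39 with myoglobin, against 52, 50, 51 and 40 with vehicle (-0.04 ± 0.15). Ino80d, a subunit of the INO80 complex, had 20, 12, 13 and 20 with myoglobin, against 20, 24, 19 and 20 with vehicle (-0.36 ± 0.25, adjusted p = 0.761, limma). The ARID genes Arid4a and Arid3b, of which the first has a product found with SIN3 deacetylase complexes, were at 0.07 and -0.22. Smarcal1, an annealing helicase of replication forks, was at -0.10.

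**Figure D2:**
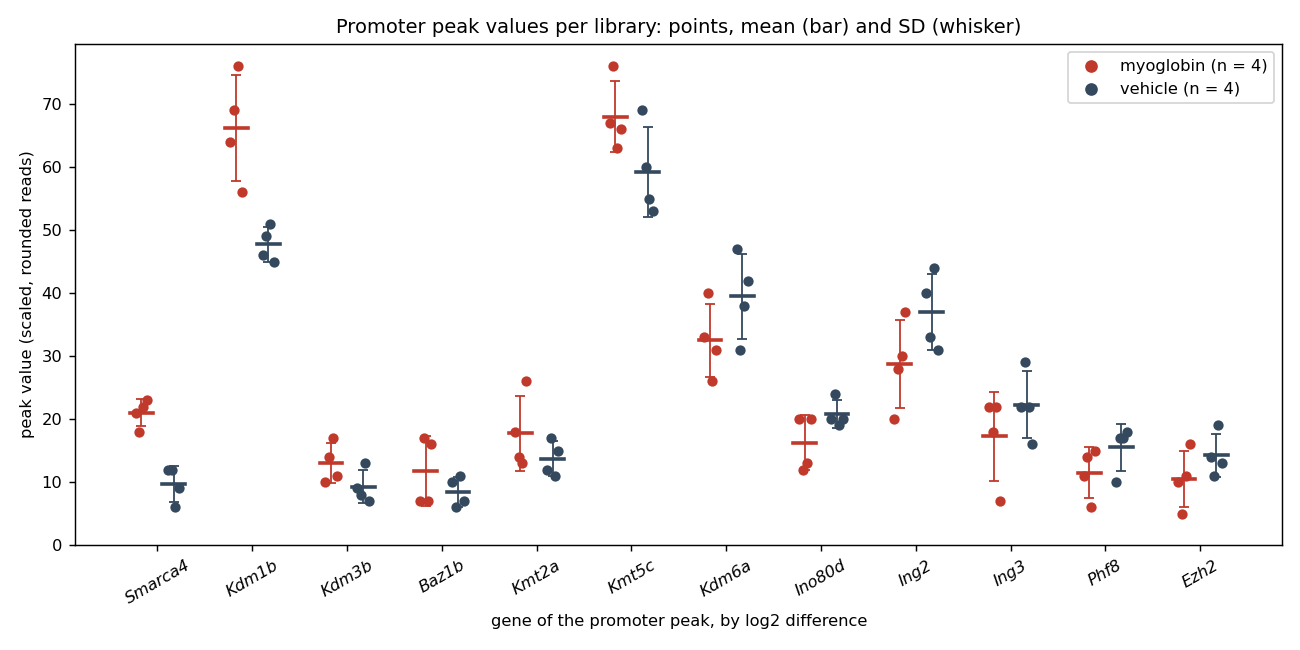
Peak values (scaled, rounded reads) of each library are plotted for 12 promoters, ordered by log2 difference, with the myoglobin group left of the vehicle group, bars for means and whiskers for SD (n = 4 each). Smarca4 (18 to 23 with myoglobin, 6 to 12 with vehicle) and Kdm1b (56 to 76 with myoglobin, 45 to 51 with vehicle) are the promoters whose groups do not overlap.

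Erasers were represented by 15 peaks of 13 genes, 8 with a positive difference, and a median of 0.02. The median was -0.08 without myoglobin replicate 3, with 6 positive. Kdm1b had the largest difference of the class. Its peak (chr13:47043163-47043594, 120 bp from the TSS) had 64, 69, 76 and 56 with myoglobin, against 46, 49, 51 and 45 with vehicle. The lowest myoglobin library was above the highest vehicle library. The means were 66.2 ± 8.42 with myoglobin and 47.8 ± 2.75 with vehicle (SD, n = 4 each), and the log2 difference was 0.46 ± 0.14 (SE, 95% limma interval 0.18 to 0.74), with an adjusted p = 0.249 by limma. The ratio of the means was 1.39. Without myoglobin replicates 2 and 3, the 2 highest libraries at this peak, the log2 difference was 0.32 (unadjusted p = 0.0557, limma). With 1 library left out it was 0.39 to 0.53, with adjusted p of 0.169 to 0.691 (limma). The estimated reads were 203 with myoglobin and 254 with vehicle, and the 95% counting interval of their depth-corrected ratio was 1.12 to 1.64. This interval covers counting error only and leaves out the spread between libraries. In RefSeq, Tpmt, a thiopurine methyltransferase gene, starts on the opposite strand within 1000 bp, so the accessible stretch cannot be assigned to Kdm1b alone.

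Of the lysine demethylases, none passed the threshold and most had negative differences. Of 9 peaks of 8 Kdm genes, 3 had a positive difference and the median was -0.19, and it was -0.01 without myoglobin replicates 2 and 3, the shallowest libraries. Kdm6a, the X-linked demethylase UTX that removes repressive histone methylation, had 33, 40, 26 and 31 with myoglobin, against 47, 31, 38 and 42 with vehicle (-0.27 ± 0.18, adjusted p = 0.752, limma). The groups overlapped. Kdm3a was at -0.23 ± 0.24 for the peak 1 bp from its TSS and at -0.20 ± 0.27 for the peak 508 bp away. Kdm4a was at -0.19, Kdm4b at -0.01 and Kdm5c at 0.09. Kdm3b had 10, 14, 17 and 11 with myoglobin, against 9, 8, 13 and 7 with vehicle (0.46 ± 0.32), with overlapping groups and few reads.

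Differences at the deacetylase promoters were within their standard errors and stay uncertain, with a 95% limma interval of -0.25 to 0.72 for Hdac2. Of 5 Hdac peaks of 4 genes, 4 were positive, with a median of 0.08. Without myoglobin replicate 3, 2 of 5 were positive and the median was -0.08. Hdac1 and Hdac2, the catalytic pair of several corepressor complexes, were at 0.07 ± 0.22 and 0.23 ± 0.24. Hdac1 had 23, 18, 35 and 28 with myoglobin, against 19, 26, 32 and 21 with vehicle. Hdac6, which acts on cytoplasmic tubulin, was at 0.14 and the Hdac11 peaks were at -0.11 and 0.08. The promoter of Sirt2, an NAD-dependent deacetylase, had means of 16.0 in both groups (0.02 ± 0.26).

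Writers gave 12 peaks of 11 genes, with 5 positive differences and a median of -0.03 (-0.03 to 0.02 with a library left out). Without myoglobin replicates 2 and 3 the median was 0.03, with 7 of 12 positive. The writer peaks included the tallest of the set, where the errors were smallest. Prmt1 had 74, 69, 54 and 69 with myoglobin, against 64, 69, 80 and 69 with vehicle (-0.09 ± 0.13). Kmt2b, the MLL2 methyltransferase of promoter histones, had 70, 63, 65 and 64 with myoglobin, against 57, 62, 68 and 70 with vehicle (0.03 ± 0.13). At these heights the 95% limma interval of Kmt2b ran from -0.23 to 0.29, the narrowest error the data gave for these genes along with that of Prmt1. Kmt5c, which methylates histone H4 in heterochromatin, had 67, 76, 63 and 66 with myoglobin, against 69, 60, 55 and 53 with vehicle (0.20 ± 0.13, adjusted p = 0.758, limma). Only 1 vehicle library reached into the myoglobin range there.

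Lower writer peaks had wider errors. Ezh2, the methyltransferase of Polycomb repressive complex PRC2, had the most negative difference of the 66 peaks. It had 10, 5, 11 and 16 with myoglobin, against 14, 11, 19 and 13 with vehicle (-0.48 ± 0.31, adjusted p = 0.752, limma), and the groups overlapped. Kmt2a, the MLL1 methyltransferase, had 18, 14, 13 and 26 with myoglobin, against 12, 17, 11 and 15 with vehicle (0.32 ± 0.27). Setd1a, with means of 5.00 with myoglobin and 4.00 with vehicle, was at 0.39 ± 0.49. Setd2, the methyltransferase that marks transcribed gene bodies, was at -0.05 and Setd5 at -0.27. Prmt5, the symmetric arginine methyltransferase, was at -0.05. The acetyltransferases Kat7 (HBO1) and Kat8 (MOF) were at -0.03 and 0.12 for the pair of Kat7 peaks and at -0.04 for Kat8.

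Readers gave 12 peaks of 9 genes, 5 with a positive difference and a median of -0.10. It was 0.03 without myoglobin replicate 3, with 7 of 12 positive. The ING proteins carry a PHD finger for methylated histone H3 and serve as subunits of acetyltransferase and deacetylase complexes. Ing2 had 20, 28, 30 and 37 with myoglobin, against 40, 33, 44 and 31 with vehicle, and the groups overlapped. Its difference of -0.37 ± 0.19 had the smallest p of the negative ones (adjusted p = 0.653, limma). Ing3, of the TIP60 acetyltransferase complex, had 22, 18, 22 and 7 with myoglobin, against 22, 29, 22 and 16 with vehicle at its peak 138 bp from the TSS (-0.44 ± 0.26). Without myoglobin replicate 4 that difference was -0.08. The second Ing3 peak at 455 bp was at 0.24 ± 0.39. Ing5 was at -0.17, and the Ing1 peaks were at 0.12 and -0.07.

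Among the PHD finger genes, 3 of 6 peaks of 5 genes were positive. Phf8, an X-linked demethylase that also reads histone H3 methylation, had 11, 14, 6 and 15 with myoglobin, against 10, 17, 17 and 18 with vehicle (-0.44 ± 0.30). Phf14 was at 0.36, Phf23 at 0.05 and Phf13 at -0.12. The Phf12 peaks were at -0.27 and 0.04.

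Of 15 peaks of 15 initiation genes, 13 had a positive difference, with a median of 0.16, but none passed at an unadjusted p under 0.05 and the groups overlapped at every one. With a library left out, 10 to 13 were positive, and without myoglobin replicate 1 the median was 0.07, below that of the remodellers at 0.13. Without myoglobin replicates 2 and 3, the shallowest libraries, the initiation median was 0.30, with 12 of 15 positive. All 7 Mediator peaks were positive, between 0.08 and 0.40, with a median of 0.20. This is a description of 1 family among the 14 formed by the symbols. Mediator bridges DNA-bound activators and the polymerase. Med11, a head module subunit with the tallest of these peaks, had 39, 44, 41 and 58 with myoglobin, against 34, 50, 49 and 39 with vehicle (0.08 ± 0.16). Med23 had 28, 17, 19 and 19 with myoglobin, against 19, 16, 15 and 20 with vehicle (0.22 ± 0.24). Med26 and Med19 were at 0.20 and 0.16.

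Med17, of the head module, had 20, 6, 4 and 7 with myoglobin, against 7, 4, 7 and 5 with vehicle (0.40 ± 0.41), with 1 myoglobin library above the rest. Med6 was at 0.35 ± 0.43. Med13, of the kinase module, had 14, 8, 15 and 7 with myoglobin, against 8, 11, 13 and 7 with vehicle (0.13 ± 0.33). The count of positive Mediator differences was 7 of 7 under each other scaling tried and 5 to 7 of 7 with a library left out (5 without myoglobin replicate 1). The 8 Taf peaks had a median of 0.12 with 6 positive, and without vehicle replicate 3 the median was -0.07 with 4 positive.

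The TBP-associated factors belong to several complexes. Taf6l, a SAGA subunit, had 33, 29, 21 and 28 with myoglobin, against 27, 24, 22 and 23 with vehicle (0.19 ± 0.21). Taf10 and Taf12, shared by TFIID and SAGA, were at 0.20 ± 0.35 and 0.40 ± 0.52. Taf8 was at 0.14 and Taf15, an RNA-binding protein, at 0.10. Taf1d, of RNA polymerase I initiation, was at 0.01. Taf1, the largest TFIID subunit, was at -0.13. Taf4b was at -0.36, with 15, 14, 13 and 16 with myoglobin, against 23, 26, 16 and 13 with vehicle.

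**Figure D3:**
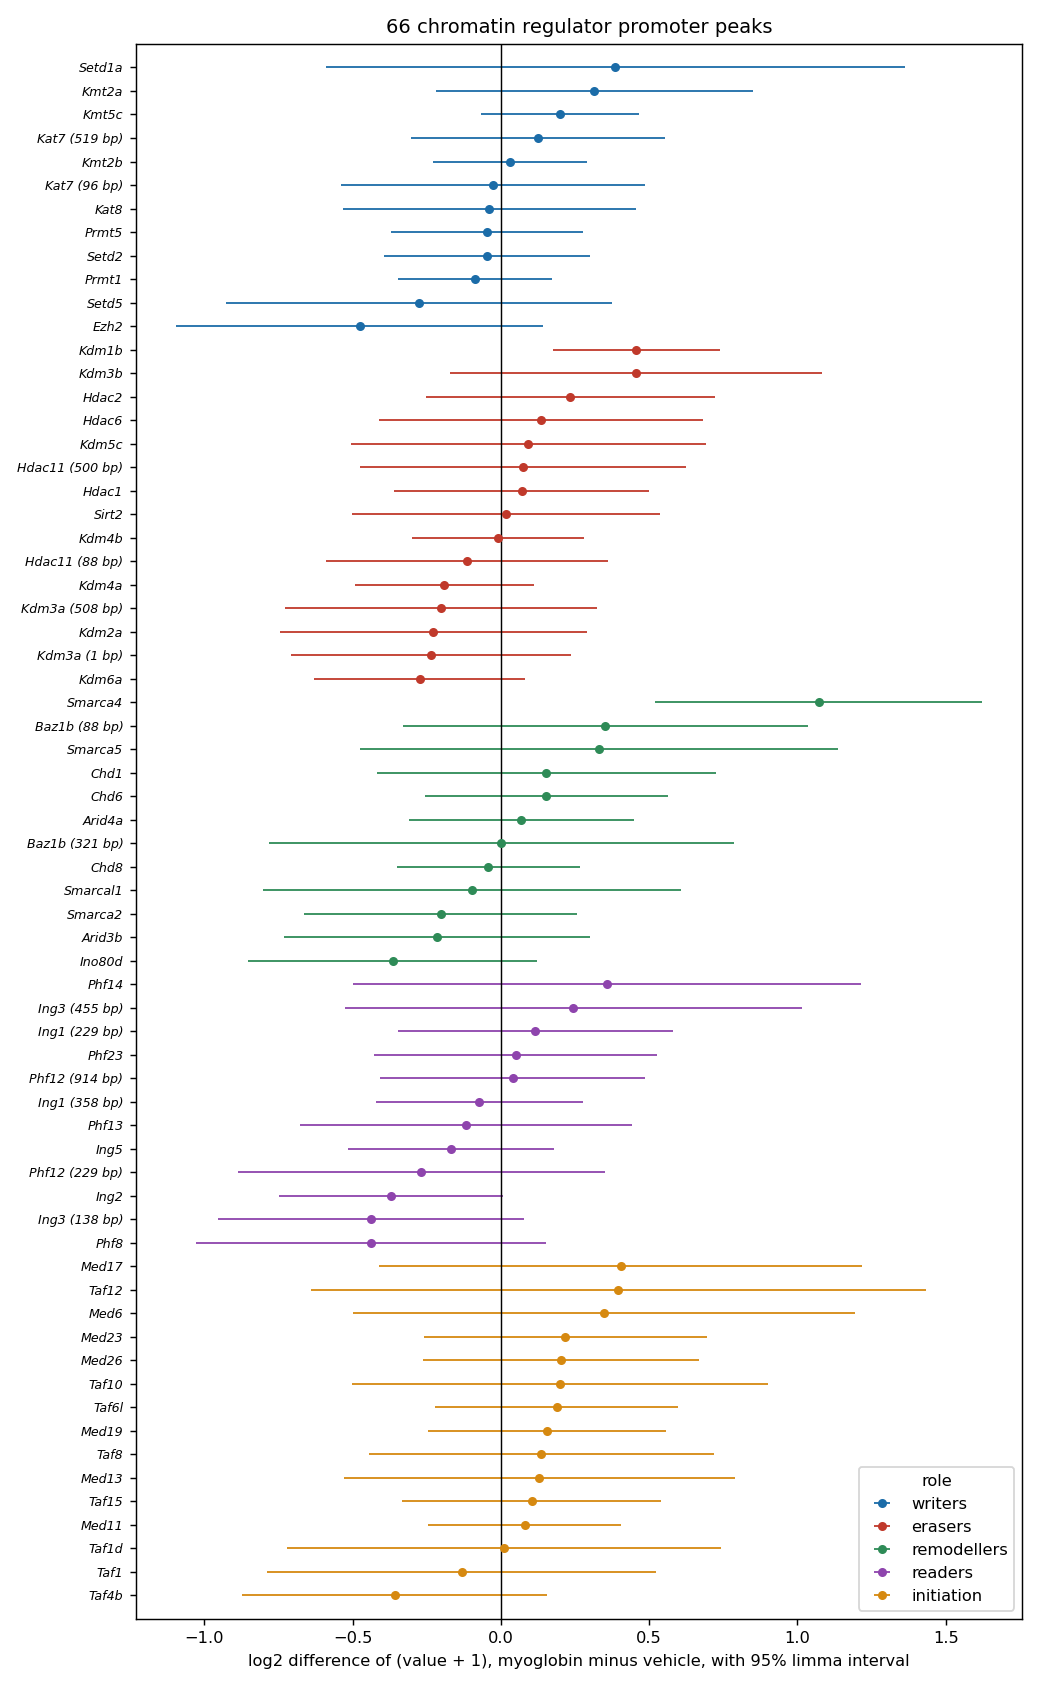
The log2 difference of (value + 1), myoglobin minus vehicle, is plotted for each of the 66 peaks with its 95% limma interval, grouped by role; a distance in bp separates peaks of the same gene. The intervals of Smarca4 and Kdm1b lie wholly above 0, and that of Ing2 just reaches past 0.

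**Figure D4:**
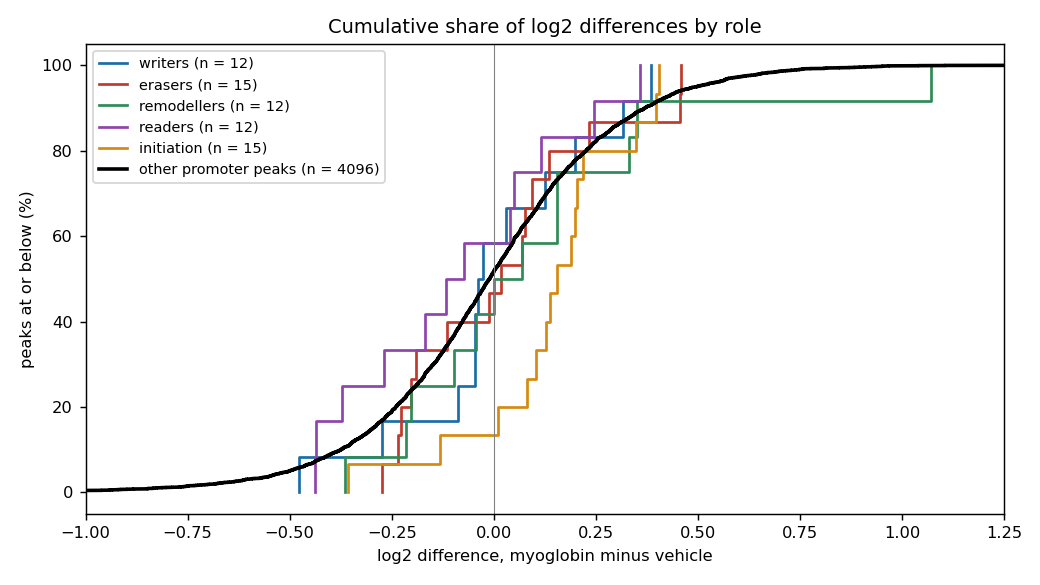
Cumulative share of peaks (%) at or below each log2 difference, myoglobin minus vehicle, for the 5 roles and, in black, the other 4096 promoter peaks, whose tails run past the axis. The initiation line lies to the right over most of its length (median 0.16) and the reader line to the left (median -0.10).

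Of the 59 genes, 7 had a pair of peaks (Baz1b, Hdac11, Ing1, Ing3, Kat7, Kdm3a and Phf12), and the signs matched in 2 of them, Baz1b and Kdm3a. The match at Baz1b carries no weight, since its peak at 321 bp was at 0.00 ± 0.39. With equal totals only 1 of the 2 Baz1b peaks was positive. The peaks of a pair share their libraries and are not replicates.

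The peaks nearest to the 1000 bp limit inside it were Kdm2a at 991 bp (-0.23) and Phf12 at 914 bp (0.04). The nearest outside were Setd5 at 1002 bp (-0.24) and Kmt2e at 1184 bp (0.05). In all, 13 peaks of the same families lay farther out, 5 with a positive difference and none called, with a median of -0.13. Of the 13, 1 had groups that did not overlap (7.69%, against 3.04% of all peaks). This peak, 2616 bp inside Ing1, had 69, 72, 63 and 69 with myoglobin, against 76, 76, 82 and 74 with vehicle. Its difference of -0.17 ± 0.12 had an adjusted p = 0.791 by limma. Arid1a and Arid2, subunits that distinguish the BAF and PBAF forms of SWI/SNF, were at -0.39 ± 0.29 and 0.42 ± 0.24 at 2334 and 1849 bp.

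Chromatin genes outside these symbols were read from 12 lists of complex partners and further enzymes, 285 genes in all. Of these, 101 had a promoter peak, 107 peaks in total. None passed at an adjusted p under 0.05, 50 differences were positive and 57 negative, and the median was -0.02. At an unadjusted p under 0.05, 5 were higher and 4 lower (8.41%, against 7.6% of all peaks), and 4 had groups that did not overlap (3.74%, against 3.04%). Partners of Smarca4 in SWI/SNF had 6 peaks of 5 genes, out of 19 listed, 4 positive, with a median of 0.48. Their differences ran from -0.21 to 0.66 with a median SE of 0.32, at low peaks (median value 11.7). Whether they changed together was not tested. Bcl7c, a BAF subunit, had 16, 15, 17 and 7 with myoglobin, against 9, 7, 9 and 7 with vehicle (0.65 ± 0.33, adjusted p = 0.649, limma).

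Polycomb genes gave 11 peaks, 5 positive, with a median of -0.02. Mtf2, a PRC2 partner, had 11, 9, 11 and 21 with myoglobin, against 6, 6, 9 and 4 with vehicle (0.92 ± 0.35, adjusted p = 0.551, limma). Its lowest myoglobin value equalled the highest vehicle value. Rnf2, the ubiquitin ligase of PRC1, was at -0.50 ± 0.28. The list of INO80, SRCAP and TIP60 partners had 3 of 11 peaks positive (median -0.21), with Epc1 at -0.70 ± 0.35 and Srcap at -0.31 ± 0.20.

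Basal initiation and Mediator partners had 7 of 9 peaks positive (median 0.25). The median was 0.15 without myoglobin replicate 4 and 0.38 without myoglobin replicate 3. Btaf1, which removes TBP from DNA, had 25, 32, 30 and 24 with myoglobin, against 19, 17, 18 and 20 with vehicle, and the groups did not overlap (0.55 ± 0.22, adjusted p = 0.551, limma). Gtf2h4, a TFIIH subunit, was at 0.95 ± 0.37. In the corepressor list, with 3 of 8 positive and a median of -0.08, Sap130 of the SIN3 complex had 18, 15, 17 and 9 with myoglobin, against 25, 19, 21 and 23 with vehicle. These did not overlap either (-0.58 ± 0.25, adjusted p = 0.575, limma). Mta2, of the NuRD complex, did not overlap and was lower (-0.46 ± 0.23), while Chaf1b, of the histone chaperone CAF-1, was at 0.62 ± 0.30. Both stand on the list of further remodellers, with 7 of 19 positive (median -0.08).

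No promoter peak of the remaining lists passed the threshold. Readers and heterochromatin genes had 5 of 17 positive (median -0.16), with Mllt1 at -0.62 ± 0.30 and Trim24 at -0.46 ± 0.22. Further writers had 4 of 9 positive (median -0.03), with the arginine methyltransferase Carm1 at -0.12 ± 0.12 and the lysine methyltransferase Ehmt1 at -0.31 ± 0.36. Further erasers had 1 of 3 positive, with Jmjd6 at 0.12 and the deubiquitinase Usp22 at -0.03. COMPASS partners had 3 of 3 positive (median 0.13), with the Paxip1 peaks at 0.50 and 0.13. SAGA partners had 5 of 7 (median 0.09), with Atxn7l3 at 0.29 and Tada3 at 0.21. DNA methylation genes had 3 of 5 (median 0.15), with Tdg, a thymine DNA glycosylase, at 0.90 ± 0.52 from means of 5.25 with myoglobin and 2.50 with vehicle.

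The chromatin regulator promoters were close to other accessible promoters in height and sequence. Their mean values ran from 4.38 to 68.5 (median 18.4, against 17.5 for other promoter peaks), no library was at 0 at any of them, and 11 had a mean under 10. Their median width was 240 bp, against 222 bp. By gene span, 49 lay upstream of the gene and 17 inside it (74.2% upstream, against 63.6%). Exons, introns and UTRs were not used here.

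Of 59 genes, 48 matched a RefSeq promoter whose TSS lay within 1000 bp of the peak. Over these 300-base windows the median GC content was 62.8%, against 64.0% in 2934 other promoters with a peak and 52.7% in all 32851 RefSeq promoters. The ratio of observed to expected CpG was above 0.6 in 45 of the 48 (93.8%), against 85.7% and 35.8%. GC box letters stood in 77.1%, against 78.2% and 35.7%. The letters CCAAT stood in 62.5%, against 49.5% and 37.4%, and the ETS letters in 22.9%, against 20.1% and 8.86%. The NRF1 letters stood in 3 of the 48 (6.25%: Med17, Smarca4 and Smarca5), against 6.65% and 2.71%. The AP-1 letters stood in 8.33%, against 4.29% and 7.81%. The antioxidant response element TGACNNNGC stood in 16.7%, against 17.3% and 12.4%, and the glucocorticoid receptor core letters AGAACA in 12.5%, against 9.68% and 19.0%. The TATA letters TATAAA stood in 1 promoter (2.08%), against 4.12% and 13.6%. Motifs were searched on both strands, and a match in GC-rich sequence can overlap another. A coding gene started on the opposite strand within 1000 bp at 5 of the 64 peaks that could be compared (7.81%, against 13.1% of other promoter peaks). These were the peaks of Kdm1b (Tpmt), Med19 (Tmx2), Sirt2 (Nfkbib), Phf14 (Ndufa4) and Taf1d (4931406C07Rik). None of them can be assigned to the named chromatin regulator alone.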

How the data were processed

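ATAC-seq was measured in 4 myoglobin and 4 vehicle libraries, grouped by their titles. Per the submitters' processing notes, the genome build was mm10, and featureCounts, STAR 2.7.10a, DESeq2 1.36.0, Trimmomatic 0.39 and Picard 3.0.0 are listed as tools. Their roles, the peak caller, duplicate removal and any Tn5 shift are not given in the sources used here. The deposited values form 1 peak set and are treated as a score: whole numbers that the authors scaled per library and rounded, with totals of 124415 to 126782. They are not counts, so no count test was run. The scaling factor of each column was estimated from the steps between its values, and dividing by it gave the estimated reads.

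Differences were fitted with limma 3.58.1 (R 4.3.3) on log2(value + 1), with treatment as the only term, a mean-variance trend and all 6425 peaks kept; p-values were adjusted by Benjamini-Hochberg, with a threshold of 0.05. The variance prior had 78.5 degrees of freedom and the residual 6. The fit was tested on simulated data. Genes are those named in the deposited table. Promoters came from RefSeq tables of GRCm38.p6, matched by symbol, and hold no entry for 11 of the 59 genes that met the distance limit.

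The members and lists were chosen with earlier results of these data known. Genes with values were named by rule: Smarca4, the tallest peak of each family, the 6 smallest p-values in each direction, the 2 peaks nearest the distance limit on each side and up to 2 examples a list, with the smallest p. The other members were added with their values known, so that each of the 66 is accounted for. Alternatives were median-ratio scaling, equal totals, pseudocounts of 0.1 and 5, a filter at a mean of 10, a square root scale, library weights, a window of 500 bp, genes with 1 peak, the replicate block and leaving out libraries. Medians per family were added after seeing the data. An item of 1 list is not reported here.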

Additional observations from a re-analysis of the deposited data

Results flagged for a closer look

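Within the 4 libraries of a group, 1 library stood far from the others at 4 of the 132 sets of values examined (66 peaks in 2 groups), by Dixon's criterion at 95%. Chance gives about 1 in 20, or 6.6 sets. All 4 were in the vehicle group. At the Phf12 peak 914 bp from the TSS, vehicle replicate 1 had 17, against 22 to 23 in the other vehicle libraries. At the Phf8 promoter, vehicle replicate 1 had 10, against 17 to 18. At the Chd8 promoter, vehicle replicate 4 had 40, against 50 to 52. At the Arid4a promoter, vehicle replicate 3 had 44, against 26 to 28.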

How the results depend on the processing

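Of the chromatin regulator peaks, Smarca4 passed the threshold under library weights (log2 difference 1.05, adjusted p = 0.0496), giving 1 called peak, and under no other alternative; leaving out 1 library gave differences of 0.88 to 1.18 and adjusted p of 0.058 to 0.475. Elsewhere none was called in either direction; with each library left out, 2 to 3 were higher and 0 to 2 lower at an unadjusted p under 0.05 (limma). The median of the 66 peaks stayed positive (0.02 to 0.05 with a library left out). Over all peaks, 8 were higher and 1 lower with a pseudocount of 0.1, 5 were lower with a pseudocount of 5 and with library weights, and 7 were lower without myoglobin replicates 2 and 3. With a library left out, 7 to 13 were higher and 0 to 4 lower. With group means removed, same-numbered libraries had correlations of -0.01 to 0.03, and differently numbered ones -0.06 to 0.04. With so few reads at each peak, these values cannot show whether replicate numbers pair the libraries. With the replicate block 9 peaks were higher and 1 lower, no chromatin regulator peak was called, and Smarca4 had an adjusted p of 0.128 (limma).

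Named peaks with small differences changed sign, and the cause was not tested. Without myoglobin replicates 2 and 3, the differences were -0.072 (Arid4a), 0.11 (Ing1), -0.0079 (Phf12), -0.065 (Sirt2), 0.024 (Prmt1), -0.058 (Kat7) and 0.062 (Kdm2a). With library weights Sirt2 was at -0.036. With 1 library left out, differences ran over -0.0050 to 0.24 (Arid4a), -0.21 to 0.15 (Ing1), -0.040 to 0.16 (Med11), -0.14 to 0.041 (Chd8), -0.082 to 0.23 (Hdac1), -0.078 to 0.13 (Phf12), -0.024 to 0.073 (Kmt2b), -0.10 to 0.13 (Sirt2), -0.14 to 0.0073 (Prmt1), -0.017 to 0.25 (Kat7), -0.43 to 0.084 (Kdm2a) and -0.15 to 0.28 (Kmt2e). The Mediator median ran over 0.12 to 0.27, and that of its basal initiation partners over 0.15 to 0.38 (0.47 with the filter at a mean of 10). The Taf median ran over -0.067 to 0.16 and the Hdac median over -0.082 to 0.15. Without myoglobin replicates 2 and 3 the Mediator median was 0.30 and the Taf median 0.25. The low read numbers at each peak limit these data.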
